A study of Mus musculus with 7 samples.

Results

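The genes described here are 9 tumor suppressors and oncogenes of glioma, *Nf1*, *Rb1*, *Atrx*, *Cic*, *Myc*, *Mycn*, *Met*, *Fgfr1* and *Pik3ca*, chosen by name among the 33696 genes counted in nuclei of cultured BB-p53n OPCs. All 9 had UMIs, as did 25898 genes in all. BB-p53n OPCs are oligodendrocyte progenitor cells taken from *Trp53* fl/fl C57BL/6 pups of either sex at postnatal day 5 to 7, captured with an antibody to CD140a (PDGFRα, the protein of *Pdgfra*) and transduced with a PDGFB-IRES-CRE retrovirus, and are described as *Trp53* null and PDGFB overexpressing. They were measured by single-nucleus RNA-seq (snRNA-seq) in 1 library. The study also has 3 early-stage and 3 late-stage samples of tumor-bearing brain, which were not analysed here, and no library of OPCs without the virus was compared. There is thus no replicate and no test, every nucleus comes from the same library, and each interval below is a 95% interval of counting error only.

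Glioma driver genes act on a small number of circuits. Growth factor receptors such as those encoded by *Met* and *Fgfr1* signal through Ras, which the *Nf1* product neurofibromin switches off, and through PI3 kinase, whose catalytic subunit p110α is encoded by *Pik3ca*. Signals from Ras end the repression exerted by the *Cic* product and raise MYC proteins, the retinoblastoma protein encoded by *Rb1* holds back the E2F factors that open S phase, and *Atrx* encodes a chromatin remodeler that, with DAXX, places histone H3.3 in repeats and telomeres. In OPCs, PDGFRα feeds the same Ras and PI3 kinase routes.

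Nuclei with 2000 to 8000 detected genes were retained, 8917 of 10047 barcodes, with 141138093 UMIs and a median of 13771 per nucleus. A level is given in CPM, the UMIs of a gene over all UMIs of the summed nuclei, scaled to 1000000. Markers of the OPC lineage summed to 5176 CPM, while those of microglia, endothelium and fibroblasts or pericytes summed to 7.31, 9.49 and 0.560 CPM, with *C1qa* and *Cldn5* at 0. The astrocyte list summed to 253 CPM, of which *Slc1a3* made up 237 CPM, with *Gfap* at 1.13 CPM, and the neuronal list to 150 CPM. *Trp53* itself was counted at 24.8 CPM, and since the counts do not tell its exons apart and no control was compared, this level does not check the deletion. The mouse *Pdgfb* gene was counted at 0.531 CPM (75 UMIs), and whether transcripts of the retrovirus are counted in it is not given in the sources used here, so the overexpression was not checked either.

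*Atrx* and *Nf1* had the most UMIs of the 9 genes and *Met* almost none. *Atrx*, on the reverse strand of chrX:104841131-104973014 (GRCm39), was counted at 428 CPM (95% interval 425 to 432). *Nf1*, on the forward strand of chr11:79230500-79472438, had 323 CPM (320 to 326). *Fgfr1*, on the forward strand of chr8:26003670-26066824, had 104 CPM. *Pik3ca*, on the forward strand of chr3:32451820-32522635, had 75.2 CPM (73.8 to 76.7). These coordinates span the whole gene, exons and introns alike.

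The nuclear factors other than *Atrx* had lower levels. *Myc*, on the forward strand of chr15:61857227-61862223, had 64.3 CPM (63.0 to 65.7), and *Mycn*, on the reverse strand of chr12:12986076-12992915, had 4.69 CPM (4.34 to 5.06), from 662 UMIs. *Rb1*, on the reverse strand of chr14:73421113-73563507, was at 42.1 CPM (41.0 to 43.1). *Cic*, on the forward strand of chr7:24967095-24993584, was at 24.9 CPM (24.1 to 25.8). *Met*, on the forward strand of chr6:17463749-17573979, was at 0.468 CPM (0.362 to 0.595), from 66 UMIs. Over the 13089 genes with at least 200 UMIs the median level was 25.5 CPM, so *Cic* lay close to it, *Mycn* and *Met* below it and the other 6 genes above it.

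Longer genes offer more sequence for a nuclear read, so the order among genes was taken per kb of gene span. On that scale *Myc* was first at 12.9 CPM per kb, followed by *Atrx* at 3.25, *Fgfr1* at 1.64, *Nf1* at 1.33, *Pik3ca* at 1.06, *Cic* at 0.941, *Mycn* at 0.686, *Rb1* at 0.295 and *Met* at 0.00424 CPM per kb. No neighbors in this order had overlapping counting intervals. The median of all genes with at least 200 UMIs was 0.804 CPM per kb. The order depends on the length that is used: per kb of summed exons *Myc*, *Atrx* and *Met* kept ranks 1, 2 and 9, while *Nf1* came to rank 3, *Fgfr1* to rank 5, *Rb1* to rank 6 and *Mycn* to rank 8. *Nf1* holds *Omg* (12186 UMIs) and other genes on its opposite strand, and *Rb1*, *Cic* and *Fgfr1* also overlap genes of the opposite strand. On the same strand, the sole overlap was of *Rb1* with *Gm17233* (26 UMIs).

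Promoter sequences are shown for the pair of genes with the fewest UMIs, *Mycn*, which of the 8 tested genes had the widest range of levels between clusters of nuclei, and *Met*. They are the 250 bases before the gene start in RefSeq (GRCm38.p6, a different build from that of the counts), and 6 of the 9 genes, with 7 promoters, matched the RefSeq table. *Rb1*, *Myc* and *Fgfr1* had no match. In *Mycn* (chr12:12941837-12942086, reverse strand) capitals mark letters of the E2F motif, and in *Met* (chr6:17463707-17463956, forward strand) capitals mark the GC box.
*Mycn*: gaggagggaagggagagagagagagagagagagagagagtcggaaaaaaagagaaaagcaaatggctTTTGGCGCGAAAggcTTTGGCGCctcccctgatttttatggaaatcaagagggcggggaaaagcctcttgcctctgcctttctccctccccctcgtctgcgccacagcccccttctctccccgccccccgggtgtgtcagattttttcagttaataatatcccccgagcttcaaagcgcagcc
*Met*: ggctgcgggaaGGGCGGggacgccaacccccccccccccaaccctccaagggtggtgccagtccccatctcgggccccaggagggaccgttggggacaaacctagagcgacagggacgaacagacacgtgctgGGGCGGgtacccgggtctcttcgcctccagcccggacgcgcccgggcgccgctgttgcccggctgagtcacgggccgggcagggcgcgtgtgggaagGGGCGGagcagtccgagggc
Both strands were searched for TTTCCCGC, TTTGGCGC and TTTCGCGC (E2F), GGGCGG (GC box), CACGTG (E-box, the letters bound by MYC and MAX) and TGAATGAA and TGAATGGA (CIC octamer). *Mycn* held 3 matches to the E2F letters, beginning 183, 179 and 168 bases before the start, the first and second overlapping, whereas 1.53% of 32851 promoters held any and the other 6 promoters of these genes held none. *Met* held 3 GC boxes and *Mycn* 2, where 32.7% of all promoters held at least 1, and the share with 3 was not counted. *Met* also held 1 E-box, where 6.02% of all promoters held at least 1. The CIC octamer was in 2.07% of all promoters and in none of the 7. These are matches of letters, not sites of binding.

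**Figure D1:**
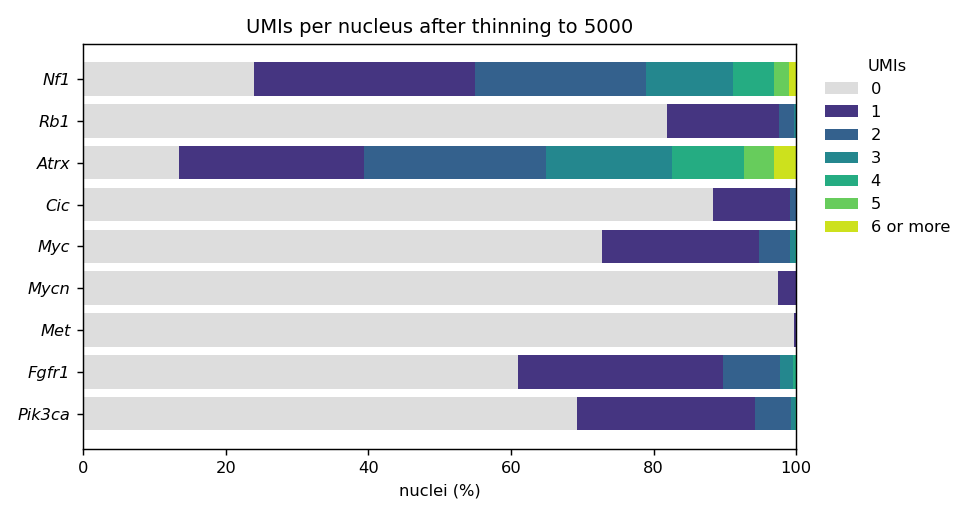
UMIs per nucleus after thinning 8760 nuclei at random to 5000 UMIs. The x axis gives the percent of nuclei and the colors the number of UMIs of the gene. *Atrx* was seen in 86.5% and *Nf1* in 76.1% of nuclei, *Mycn* in 2.52% and *Met* in 0.285%.

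To describe variation between nuclei at equal depth, UMIs were drawn at random to 5000 in each nucleus, and 157 of the 8917 nuclei were too shallow for this. *Atrx* was then detected in 86.5% of nuclei, *Nf1* in 76.1%, *Fgfr1* in 39.0%, *Pik3ca* in 30.8%, *Myc* in 27.3%, *Rb1* in 18.2%, *Cic* in 11.7%, *Mycn* in 2.52% and *Met* in 0.285%. Without thinning these shares ran from 0.706% for *Met* to 97.6% for *Atrx*. If every nucleus had the same rate of a gene, counting alone would give 87.9% for *Atrx*, 78.9% for *Nf1*, 40.5% for *Fgfr1*, 31.2% for *Pik3ca*, 28.5% for *Myc*, 19.0% for *Rb1*, 11.9% for *Cic* and 2.56% for *Mycn*. The observed shares lay just under these values, in contrast to *Pdgfra*, detected in 57.0% of nuclei against 69.2% from a single rate, and *Egfr*, in 20.3% against 29.9%. No type of nucleus known to lack these genes was in the library to measure free RNA.

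Variance over mean of the thinned counts ran from 1.03 for *Mycn* to 1.17 for *Nf1* among the 8 genes other than *Met*, against a median of 1.05 over 11014 genes, 1.65 for *Pdgfra* and 2.18 for *Egfr*. The variance beyond counting, as a squared coefficient of variation, was 0.0591 for *Atrx*, 0.110 for *Nf1*, 0.114 for *Pik3ca*, 0.208 for *Fgfr1*, 0.293 for *Cic*, 0.341 for *Myc*, 0.488 for *Rb1* and 1.04 for *Mycn*, with a median over all genes of 0.216. The value of *Mycn* rested on 227 UMIs, and after thinning to 3000 UMIs it was -0.0563 and that of *Cic* -0.0218, so neither was above counting at that depth. Over the 28 pairs of the 8 genes, nuclei with both were 0.882 to 1.35 times as frequent as the product of the separate shares, with a median of 1.00. *Myc* and *Mycn*, which belong to one family, were detected together in 75 nuclei, where the product of their shares gives 60.3. No gene reached a correlation of 0.2 across nuclei with any of the 8 genes other than *Met*.

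*Pdgfra* divided the culture unequally. It had 0 UMIs in 2341 nuclei, 1 UMI in 1000 and at least 2 UMIs in 5576. The nuclei without *Pdgfra* were shallower, with a median of 10621 UMIs against 16258, and held less of the OPC markers as a whole (2625 against 5873 CPM, *Pdgfra* included). *Egfr*, the receptor of epidermal growth factor, was at 200 CPM in them and at 21.6 CPM in nuclei with at least 2 *Pdgfra* UMIs. Clustering used the parameters of the study but all 8917 nuclei kept by their detected genes, whereas the study retained far fewer, so the 8 clusters obtained here, numbered 0 to 7, are not its clusters. The clustering placed 66.5% of the nuclei without *Pdgfra* in cluster 1 and 20.5% in cluster 3. Of the nuclei with at least 2 *Pdgfra* UMIs, 1.06% were in cluster 1.

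Cluster 1 also differed in the transcripts that tell female from male cells. At least 2 UMIs of *Xist*, the RNA that coats the inactive X chromosome of female cells, were found in 94.7% of its 1733 nuclei, in 42.9% of the 777 nuclei of cluster 5 and in 0.293% to 1.76% of the nuclei of the other clusters. Y-linked *Ddx3y*, *Uty*, *Kdm5d* and *Eif2s3y* summed to 323 CPM in cluster 3, 106 CPM in cluster 0, 67.1 CPM in cluster 5 and 7.0 CPM in cluster 1. In clusters 2, 6, 4 and 7 they were also low, at 7.10, 7.14, 12.7 and 16.2 CPM, and 85.3% to 91.7% of the nuclei of these clusters had no UMI of *Xist* or of the Y-linked genes. Such nuclei made up 49.5% of all nuclei, 14.7% of those without *Pdgfra* and 64.8% of those with at least 2 *Pdgfra* UMIs. At least 2 UMIs of both kinds occurred in 114 nuclei, of which 88 were in cluster 5, the cluster of greatest depth with a median of 30276 UMIs. The cells came from pups of either sex that the labels do not tell apart, so a low level of *Pdgfra* in cluster 1 and an origin from other pups cannot be told apart. The levels of the 9 genes by *Pdgfra* are therefore also given without cluster 1 and by *Xist*.

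Between nuclei with 0 and with at least 2 *Pdgfra* UMIs, *Fgfr1* was higher and *Mycn* lower in those without *Pdgfra*, and the other tested genes differed by less than 1.5 times. Of the 9 genes 8 had at least 200 UMIs in both groups together, *Met* being the exception, and 2 of these 8 passed 1.5 times. Of all 12907 genes tested, 29.2% did, 17.6% higher and 11.6% lower, so the count for the 8 genes is near the background. The median gene was itself higher by 0.14 on the log2 scale in nuclei without *Pdgfra*. When ratios are taken relative to that median, the higher genes make up 46.5% of those past the threshold instead of 60.4%.

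Among the receptors, *Fgfr1* was at 156 CPM in nuclei with 0 *Pdgfra* UMIs, 102 CPM in those with 1, 90.1 CPM in those with 2 to 3 and 90.1 CPM in those with 4 or more. The ratio of the first group to nuclei with at least 2 *Pdgfra* UMIs was 1.74 (1.68 to 1.80), or 1.58 relative to the median gene. Nuclei with 1 UMI thus lay between those with none and those with at least 2, with no gradient above 2 UMIs. The shares of these 4 groups in cluster 1, a cluster described above, were 66.5%, 11.7%, 1.60% and 0.822%. After thinning to 5000 UMIs *Fgfr1* was detected in 50.8% of nuclei without *Pdgfra* (48.8% to 52.9%) and in 34.3% of those with at least 2 UMIs (33.0% to 35.6%). *Met*, the receptor of hepatocyte growth factor, had 30 UMIs without *Pdgfra* and 26 UMIs in the larger group, 1.12 against 0.253 CPM, a ratio of 4.44 (2.54 to 7.82) that rests on these few UMIs.

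*Mycn* was at 2.85 CPM in nuclei with 0 *Pdgfra* UMIs, 5.45 CPM in those with 1, 5.33 CPM in those with 2 to 3 and 5.01 CPM in those with 4 or more. Its ratio was 0.560 (0.434 to 0.713). *Myc* followed no such step, at 60.6 CPM without *Pdgfra* and 65.1 CPM with at least 2 UMIs, a ratio of 0.931 (0.881 to 0.983).

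The tumor suppressors differed less. *Nf1* was at 279 CPM without *Pdgfra*, 325 CPM with 1 UMI, 316 CPM with 2 to 3 and 339 CPM with 4 or more, a ratio of 0.836 (0.815 to 0.857) to the group with at least 2. *Atrx* was lower without *Pdgfra* by a like amount, 381 against 444 CPM, a ratio of 0.859 (0.840 to 0.877). *Cic* was at 29.8 against 23.5 CPM, a ratio of 1.27 (1.17 to 1.37). *Rb1*, at 40.0 against 42.6 CPM, had a ratio of 0.937 with an interval that reached 1.00, and relative to the median gene it was 0.851. *Pik3ca*, which sits downstream of the receptors, was at 84.3 against 73.1 CPM, a ratio of 1.15 (1.10 to 1.21) that came to 1.05 relative to the median gene.

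**Figure D2:**
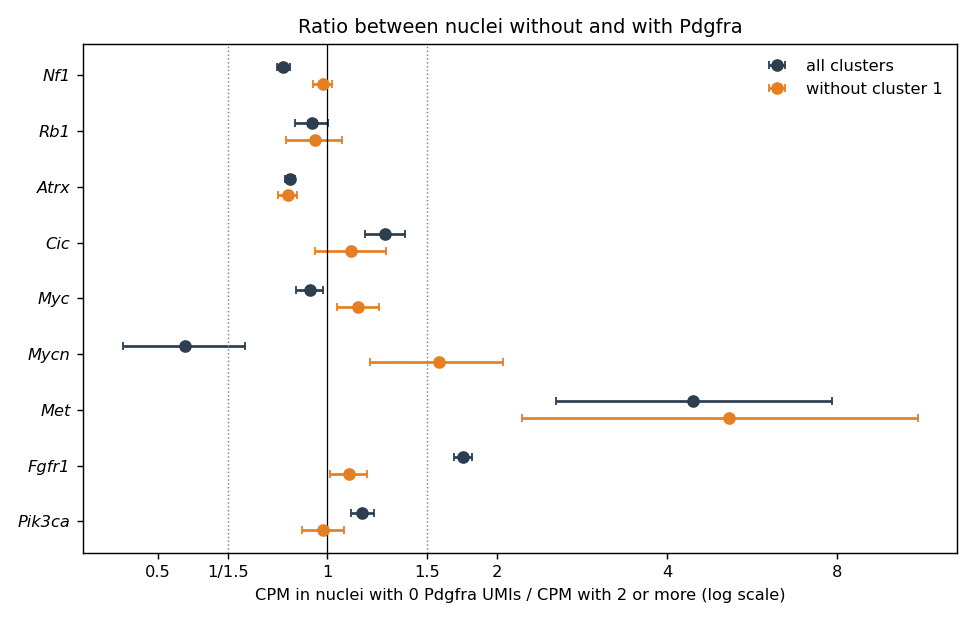
Ratio of the level in nuclei with 0 *Pdgfra* UMIs to the level in nuclei with at least 2, with 95% counting intervals, on a log axis, for all clusters and without cluster 1. Dotted lines mark 1.5 times either way. *Fgfr1* moved from 1.74 to 1.09 and *Mycn* from 0.560 to 1.57 when cluster 1 was left out.

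Shallow nuclei have fewer chances to show a *Pdgfra* UMI. With *Pdgfra* called after thinning each nucleus to 5000 UMIs, neither gene passed 1.5 times, where 13.7% of all genes did. *Fgfr1* had a ratio of 1.45 and *Mycn* of 0.739, and 3764 of 8760 nuclei then had 0 *Pdgfra* UMIs. With the mean log2 ratio taken within 5 bins of depth, both genes passed, where 28.8% of all genes did. *Fgfr1* was then at 1.83 and *Mycn* at 0.530.

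Neither difference stayed past 1.5 times in its direction when cluster 1 was left out. Without it, 784 nuclei with 0 *Pdgfra* UMIs remained against 5517 with at least 2, and *Fgfr1* was at 96.9 against 88.9 CPM, a ratio of 1.09 (1.01 to 1.17). *Mycn* turned to the other direction, at 8.02 CPM (63 UMIs) against 5.10 CPM (516 UMIs), a ratio of 1.57 (1.19 to 2.05). In this comparison 1 of the 8 tested genes passed 1.5 times, against 13.2% of all genes tested. *Nf1* was at 0.981, *Rb1* at 0.949, *Cic* at 1.10, *Myc* at 1.13 and *Pik3ca* at 0.983 as ratios, whereas *Atrx* stayed at 0.850 (0.819 to 0.882). *Met*, with 10 and 25 UMIs, had a ratio of 5.16 (2.21 to 11.1).

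Within the nuclei without *Pdgfra*, cluster 1 stood apart from the other clusters. It had 181 CPM of *Fgfr1* against 96.9 CPM in the other clusters, a ratio of 1.87 (1.73 to 2.03), where 33.8% of the genes tested passed 1.5 times. *Mycn* was at 0.690 CPM in cluster 1, from 13 UMIs, and at 8.02 CPM in the others. The 59 nuclei of cluster 1 with at least 2 *Pdgfra* UMIs had 159 CPM of *Fgfr1*, so that the ratio within cluster 1 was 1.14 (1.01 to 1.30), and, from 7 UMIs, 4.17 CPM of *Mycn* (1.68 to 8.60). The ratio of *Mycn* within cluster 1 was 0.165 (0.0613 to 0.489), from these few UMIs. Within cluster 3, where 480 nuclei had no *Pdgfra* and 516 at least 2 UMIs, *Fgfr1* had a ratio of 1.07 (0.946 to 1.20) and *Mycn* of 1.08 (0.706 to 1.64), and 1.27% of all genes passed 1.5 times.

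**Figure D3:**
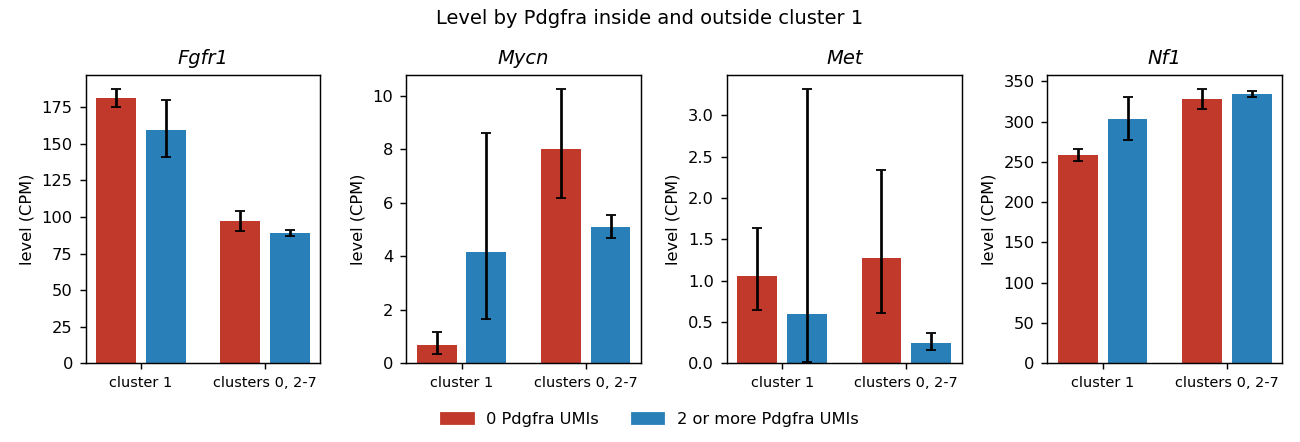
Level in CPM, with 95% counting intervals, in nuclei with 0 and with at least 2 *Pdgfra* UMIs, inside cluster 1 and in clusters 0 and 2 to 7. *Fgfr1* was high in cluster 1 in both groups (181 and 159 CPM), while *Mycn* was at 0.690 CPM in nuclei of cluster 1 without *Pdgfra* and at 8.02 CPM in such nuclei of the other clusters.

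Split by *Xist*, the genes behaved in different ways. Of the 1507 nuclei with at least 2 *Xist* UMIs and no *Pdgfra*, 98.0% lay in cluster 1, whereas of the 386 with at least 2 UMIs of both 274 (71.0%) lay in cluster 5 and 58 in cluster 1. The comparison among nuclei with *Xist* is thus mostly one of cluster 1 with cluster 5. Among nuclei with 0 *Xist* UMIs, *Fgfr1* was at 104 CPM without *Pdgfra* and 86.2 CPM with at least 2 *Pdgfra* UMIs, a ratio of 1.21 (1.12 to 1.30). Among nuclei with at least 2 *Xist* UMIs it was at 180 against 124 CPM, a ratio of 1.45 (1.36 to 1.55). *Mycn* was at 7.67 against 5.10 CPM in nuclei without *Xist*, a ratio of 1.5 (1.13 to 1.96), and at 0.707 against 4.91 CPM, from 13 and 52 UMIs, in nuclei with *Xist*, a ratio of 0.144 (0.0720 to 0.268). The shares of all genes past 1.5 times were 13.8% and 20.4%. X-linked *Atrx* had ratios of 0.840 and 0.892 in nuclei without and with *Xist*. In the same order *Nf1* had 0.974 and 0.805, *Rb1* 1.00 and 0.866, *Cic* 1.09 and 1.28, *Myc* 1.12 and 0.909, and *Pik3ca* 1.05 and 1.17, all of them under 1.5 times. *Met* had ratios of 4.26 (8 and 21 UMIs) and 2.54 (22 and 5 UMIs).

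*Egfr* was concentrated in cluster 1, at 236 CPM. Among the nuclei without *Pdgfra*, those with at least 2 *Egfr* UMIs had 172 CPM of *Fgfr1* and those with none 125 CPM, a ratio of 1.38 (1.28 to 1.49), and *Mycn* had 19 and 47 UMIs, a ratio of 0.206 (0.114 to 0.358). None of the tested genes passed 1.5 times here, where 14.0% of all genes did, *Mycn* having under 200 UMIs.

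Across the 8 clusters, which were formed on these same counts and are described without a test, none of the 9 genes was among the 3000 variable genes that shaped them. Each cluster was set against all other nuclei. Of 64 pairs of a gene and a cluster that had enough UMIs, 7 passed 1.5 times, 4 higher and 3 lower, or 10.9%, against 19.3% of all pairs of a gene and a cluster (7.35% higher and 11.9% lower). *Mycn* made up 5 of the 7, of which that in cluster 7 rested on 3 UMIs (0.293 times, 0.0602 to 0.859).

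**Figure D4:**
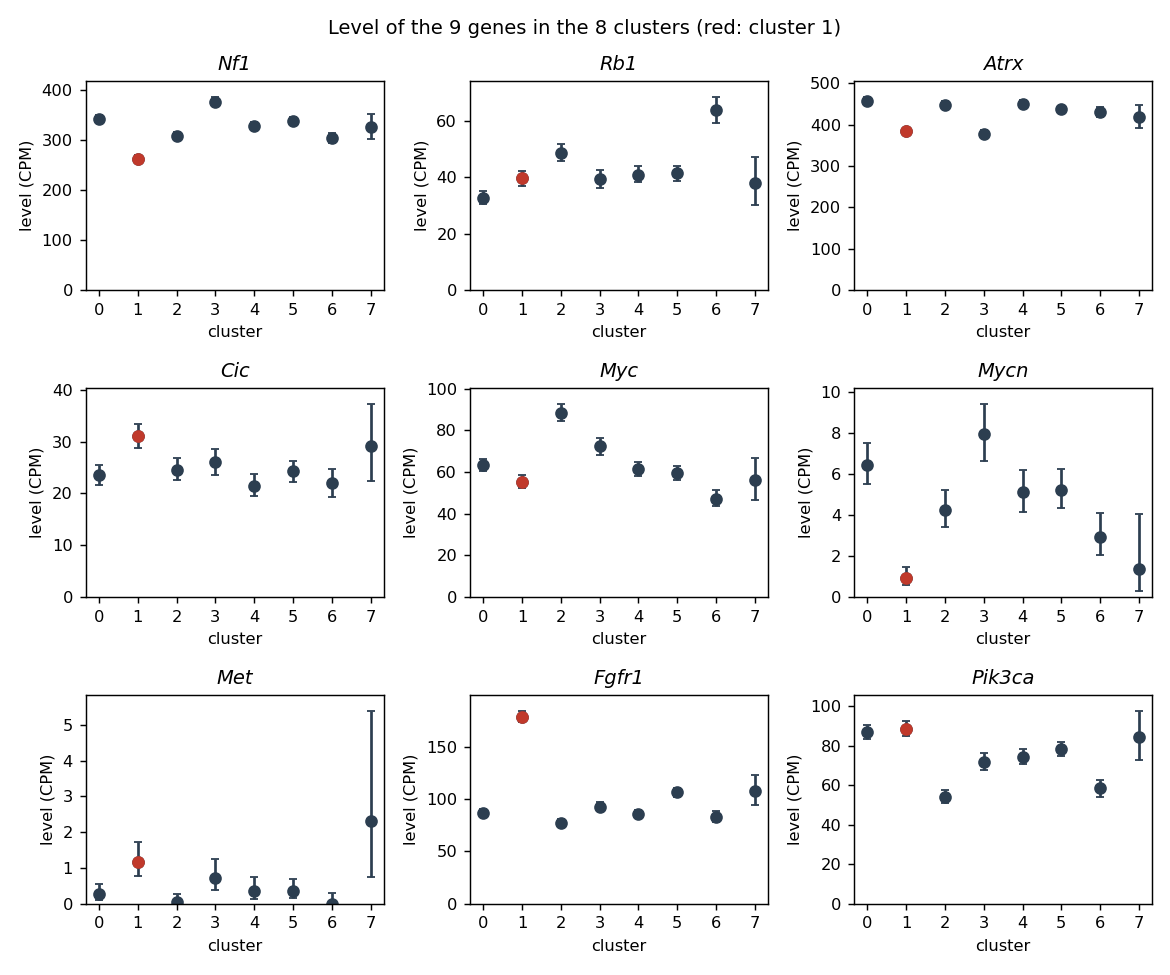
Level of each of the 9 genes in the 8 clusters, in CPM on axes that start at 0, with 95% counting intervals. Cluster 1, in red, was highest for *Fgfr1* (179 CPM) and lowest for *Mycn* (0.948 CPM), and cluster 6 was highest for *Rb1* (63.6 CPM).

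*Fgfr1* was lowest in cluster 2 (77.1 CPM) and highest in cluster 1 (179 CPM), with 108 CPM in cluster 7 and 107 CPM in cluster 5 next, so that cluster 1 stood apart from the other clusters. *Met* had 26 of its 66 UMIs in cluster 1 (1.17 CPM), 5 UMIs in the small cluster 7 (2.31 CPM, 0.751 to 5.40) and none in cluster 6, where the 95% interval reaches 0.310 CPM. *Pik3ca* was lowest in cluster 2 (54.4 CPM) and highest in cluster 1 (88.8 CPM), near the 87.1 CPM of cluster 0.

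*Mycn* was lowest in cluster 1, at 0.948 CPM from 21 UMIs, 0.176 times the level of all other nuclei (0.108 to 0.271). It was highest in cluster 3 at 7.95 CPM, the cluster with the second lowest *Pdgfra* level, and in cluster 0 at 6.46 CPM. Clusters 1 and 3, the pair with the least *Pdgfra*, were thus at opposite ends for this gene. *Myc* was highest in cluster 2 at 88.4 CPM and lowest in cluster 6 at 47.2 CPM.

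*Rb1* was at 63.6 CPM in cluster 6, 1.59 times all other nuclei (1.47 to 1.71), and elsewhere between 32.8 CPM (cluster 0) and 48.6 CPM (cluster 2). Cluster 6 had the highest level of the proliferation marker *Mki67*, 637 CPM, and cluster 2 the lowest, 159 CPM. *Nf1* was lowest in cluster 1 (263 CPM) and highest in cluster 3 (376 CPM), *Atrx* was lowest in cluster 3 (378 CPM) and highest in cluster 0 (458 CPM), and *Cic* was lowest in cluster 4 (21.5 CPM) and highest in cluster 1 (31.0 CPM). None of these 3 suppressors passed 1.5 times in a cluster.

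Whole chromosomes differed in UMI share between clusters, so each gene was set beside the other genes of its chromosome. The median ratio of all genes tested, cluster to all other nuclei, was 1.12 in cluster 1, 0.990 in cluster 3 and 0.936 in cluster 6. In cluster 1 the other genes of chromosome 12 had a median ratio of 1.46 over 472 genes while *Mycn* was at 0.176, and those of chromosome 8 had 1.20 while *Fgfr1* was at 1.99. In cluster 3 the genes of chromosome 14 had a median ratio of 0.549 over 453 genes, yet *Rb1*, which lies on it, was at 0.925 (0.851 to 1.00). In cluster 6 *Mycn* was at 0.606 beside 0.701 for chromosome 12, and *Rb1* at 1.59 beside 1.09 for chromosome 14. *Myc* in cluster 1, at 0.837, lay near the 0.822 of chromosome 15. The part of whole chromosomes in these levels was not tested.

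**Figure D5:**
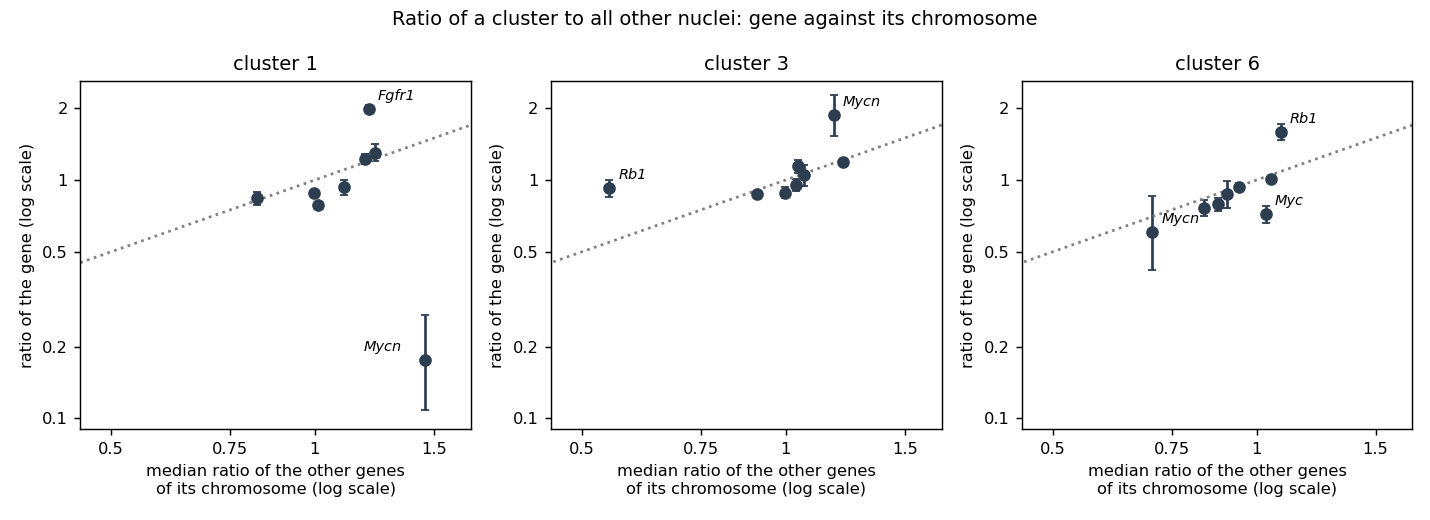
Ratio of a cluster to all other nuclei for the 8 genes other than *Met*, with 95% counting intervals, against the median ratio of the other genes on the same chromosome, on log axes, in clusters 1, 3 and 6. The dotted line marks equal ratios, and names are given for up to 3 genes in each panel. *Mycn* in cluster 1 lay far under the line (0.176 against 1.46), and *Rb1* lay above it in cluster 3 (0.925 against 0.549).

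Cycling was the other axis of the culture. At least 2 *Mki67* UMIs were found in 6484 nuclei and none in 1515, and these groups had similar shares in cluster 1, 19.5% and 17.4%. None of the 8 tested genes passed 1.5 times between them, against 8.25% of all genes. *Myc* came nearest, at 84.5 CPM in nuclei without *Mki67*, 72.4 CPM in those with 1 UMI and 60.8 CPM in those with at least 2, a ratio of 0.720 (0.679 to 0.763) of the last to the first. *Rb1* went the other way, at 35.6, 41.8 and 43.0 CPM, a ratio of 1.21. The ratios of *Nf1*, *Fgfr1* and *Pik3ca* were 1.09, 1.15 and 1.15, and those of *Atrx*, *Cic* and *Mycn* were 1.06, 0.961 and 1.01. Nuclei with *Mki67* were deeper, with a median of 15582 against 9851 UMIs, and within 5 bins of depth the log2 ratio of *Myc* was -0.49, as against -0.47.

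Other genes of the same pathways are given by how many passed 1.5 times between nuclei without *Pdgfra* and with at least 2 UMIs, beside the background of 29.2%. Of 22 genes of the Ras pathway, 2 were higher and 1 lower. *Dab2ip*, like *Nf1* a GTPase activating protein of Ras, was at 72.4 against 25.8 CPM, a ratio of 2.81, while *Rasa2*, another, was at 70.3 against 169 CPM, a ratio of 0.416. *Rras2* had a ratio of 1.88 and *Braf*, the kinase below Ras, of 0.829. Without cluster 1 *Rasa2* was at 0.641 and *Braf* at 0.902, while *Dab2ip* came to 1.40 and *Rras2* to 1.49, both under 1.5 times.

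Of 19 RB and E2F genes 3 were higher and none lower. *Ccne1*, the cyclin that drives entry into S phase, had a ratio of 1.98 and *E2f6*, a repressor of E2F targets, of 1.84, whereas *E2f7* was at 0.877 and *Tfdp1*, the partner of E2F factors, at 0.952. Without cluster 1 *Ccne1* came to 1.30, *E2f6* to 1.29, *E2f7* to 1.03 and *Tfdp1* to 1.04. The third higher gene, *Cdk6*, a kinase that phosphorylates the retinoblastoma protein, is named outside the rule for named genes: its ratio went from 1.72 to 4.75. Also outside the rule, *Cdk4* (1.16 to 1.72) and *Cdk2* (1.17 to 0.645) passed 1.5 times only without cluster 1. Of 16 MYC target genes 1 was higher, *Ldha* of glycolysis at 1.87, with *Odc1* of polyamine synthesis at 1.40, *Bop1* of ribosome assembly at 0.740 and *Srm* at 0.888. Without cluster 1 these were 1.12, 1.17, 0.831 and 0.814, so the call of *Ldha* was lost. In the MYC network of 12 genes none passed, with *Max*, the partner of MYC proteins, at 1.49, *Mnt* at 1.20, *Mycbp2* at 0.802 and *Mxd1* at 0.706. Without cluster 1 *Max* was at 1.30 and *Mnt* at 1.20, and *Mxd1* turned to 1.12. *Mycbp2*, at 0.658, and *Mycl*, named outside the rule, at 1.59 were then past 1.5 times. Of 13 genes of ATRX and DAXX chromatin none passed either, and the values ran from 0.734 for *Cbx5*, a heterochromatin protein, and 0.806 for *Trim28* to 1.39 for *Cbx1* and 1.40 for the histone chaperone *Asf1a*. Without cluster 1 *Cbx5* was at 0.913, *Trim28* at 0.907 and *Cbx1* at 1.30, and *Asf1a* had a log2 ratio of 0.03.

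Of 11 CIC partners and targets 2 were higher and 1 lower. *Dusp4*, a phosphatase of ERK, was at 26.6 against 8.34 CPM, a ratio of 3.19, and *Etv5*, an ETS factor repressed by CIC, at 298 against 171 CPM, a ratio of 1.74. *Spry4*, also repressed by CIC, was at 0.699, and *Atxn1*, the partner of CIC, at 0.652. Without cluster 1 *Dusp4* came to 0.989, *Atxn1* to 1.17, *Etv5* to 1.29 and *Spry4* to 0.777, all under 1.5 times. Outside the rule, *Dusp6* went from 1.45 to 0.660, and so passed 1.5 times only without cluster 1.

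Of 13 genes of the MET and FGF list, which holds receptors, genes of the FGF family and adaptors, 4 were higher and 2 lower. *Fgfr3* (2.27) and *Fgfr2* (1.79) were higher along with *Fgfr1*, and *Fgf12* (0.611) and the adaptor *Gab1* (0.619) lower. Without cluster 1, *Fgfr3* stood at 1.72, *Fgfr2* at 1.39, *Gab1* at 0.761 and *Fgf12* at 1.34. Outside the rule for named genes, *Fgf1* went from 1.61 to 2.39, and *Fgf13* from 0.785 to 1.53. *Hgf*, the ligand of MET, was below 200 UMIs. Of 18 PI3 kinase genes 2 were higher and 4 lower. *Pik3cb*, which encodes the p110β subunit, was at 51.2 against 137 CPM, a ratio of 0.374, and *Inpp4b*, a lipid phosphatase, at 0.434, with *Rheb* and *Akt1* at 1.52. Without cluster 1 these came to 0.800 for *Pik3cb*, 0.988 for *Inpp4b*, 1.07 for *Rheb* and 1.18 for *Akt1*.

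Of 22 other glioma drivers 5 were higher and 2 lower. *Egfr* had a ratio of 9.27 and *Ccnd2*, a D-type cyclin, of 3.25, at 347 against 107 CPM, and without cluster 1 these were 5.23 and 1.83. The tyrosine phosphatase *Ptprd* (0.548) and the CDK inhibitor *Cdkn2c* (0.654) were lower, at 1.21 and 0.917 without cluster 1. Outside the rule, *Cdkn2b* went from 1.40 to 1.61, and *Cdk4* and *Cdk6*, given above, are also in this list. The median ratio of the lists ran from 0.939 for the MYC network to 1.16 for RB and E2F, against 1.10 for all genes tested.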

How the data were processed

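Nuclei of cultured BB-p53n OPCs were profiled by snRNA-seq (10x 3' chemistry) in 1 library. The authors aligned reads with Cell Ranger 8.0.1 (per the submitters' processing notes) to mm39 and deposited the UMI counts as they came, not normalized, in a matrix of genes by barcodes. Whether introns were counted, and whether pups were pooled, is not given in the sources used here. Barcodes with 2000 to 8000 detected genes were kept, 8917 of 10047, with 3153 to 52240 UMIs each. Scrublet, as run in scanpy 1.11.5, called 0 doublets and did not work as a filter. A maximum of 5% mitochondrial UMIs, which the methods do not mention, was not imposed: 1954 nuclei lay within it. The study lists that same number of nuclei, 1954, as left after its filters, so the nuclei it clustered may be these, and its clusters are not those made here. Gene positions came from GENCODE on GRCm39 and promoters from RefSeq on GRCm38.p6.

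Levels are UMIs summed over nuclei and scaled to 1000000 (CPM), with exact Poisson intervals. Ratios of CPM have exact conditional binomial intervals and shares exact Clopper-Pearson intervals, at 95%. They cover counting error only. With 1 library no test was made. A gene was counted as differing at 1.5 times either way among genes with at least 200 UMIs in both groups together. Clusters were made with Seurat 5.3.0 in R 4.3.3 (scale factor 1000, 3000 variable genes, 20 principal components, 200 neighbors, resolution 1.0). Where counts are thinned, UMIs were drawn at random to 5000 per nucleus. The ratio and its interval were tested on simulated data with known answers. The 9 genes, the pathway lists and the marker lists were chosen with earlier results of these data known. In each pathway list the genes with the highest 2 and lowest 2 ratios were named. The splits by *Xist* and by *Mki67* within the *Pdgfra* comparison, and those by cluster other than leaving out cluster 1, were chosen after seeing the data.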

Additional observations from a re-analysis of the deposited data

How the results depend on the processing

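Genes among the 9 past 1.5 times between nuclei with 0 and with at least 2 *Pdgfra* UMIs numbered 2, where 29.2% of all genes did. They numbered 1 when nuclei were limited to at most 5% mitochondrial UMIs (15.3% of all genes, *Fgfr1* at 1.53 times, *Rb1* at 1.09 and *Myc* at 1.07) or genes to at least 1000 UMIs (23.8%), since *Mycn* then had too few UMIs, 1 without cluster 1 (13.2%), and 3 when genes with at least 20 UMIs, *Met* among them, were tested (37.3%). With *Pdgfra* called after thinning to 5000 UMIs the number was 0 (13.7%), *Fgfr1* having a log2 ratio of 0.54 and *Mycn* of -0.44, and the cause was not tested. Within 5 bins of depth the number was 2 (28.8%). Among alternatives chosen after seeing the data it was 1 when the expectation came from the same cluster (13.8%). That gene was *Mycn*, at 0.584 times, while *Fgfr1* was at 1.13. The number was also 1 without the 2 clusters of lowest *Pdgfra* (9.46%), among nuclei with 0 *Mki67* UMIs (18.1%) and among nuclei with 0 *Xist* UMIs (13.8%). It was 0 among nuclei with at least 2 *Xist* UMIs (20.4%) and 2 without cluster 5 (30.0%). *Mycn* changed direction, from a log2 ratio of -0.84 to 0.65 without cluster 1, 0.66 without the 2 clusters of lowest *Pdgfra* and 0.59 among nuclei with 0 *Xist* UMIs, and *Fgfr1* kept its direction between 0.11 and 0.89 in all settings. The median variance beyond counting of 8 genes was 0.250, 0.180 after thinning to 3000 UMIs and 0.432 with no thinning, since depth then adds to it. The number past 1.5 times between nuclei with and without *Mki67* was 0 in every setting tried, where 8.07% to 9.62% of all genes passed. Over the clusterings tried, the share of pairs of these genes and a cluster ran from 8.33% to 14.8%. The share over all genes, 19.3%, was computed for the main 8 clusters only, so the other clusterings have no background beside them. No paired analysis was possible because 1 library was analysed. With 1 library, differences between cultures, pups and preparations were not measured, and *Met* (66 UMIs) and *Mycn* in cluster 1 (21 UMIs) were limited by depth.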

Other observations

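The 918 barcodes with fewer than 2000 detected genes, which the comparisons leave out, also held the 9 genes. *Nf1* was at 346 CPM in them (319 to 375) and *Atrx* at 353 CPM (326 to 382), against 323 and 428 CPM in the retained nuclei. *Myc* was at 41.5 CPM (32.6 to 52.2), *Rb1* at 40.4 CPM (31.6 to 51.0) and *Pik3ca* at 59.2 CPM (48.4 to 71.7). *Mycn* had 10 UMIs there.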
